A study of Mus musculus with 10 samples.

Results

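The 10 genes described here were Fos, Fosb, Junb, Egr1, Egr2, Egr3, Egr4, Arc, Npas4 and Ier2, immediate early genes that neurons transcribe within minutes of activity. They were chosen by gene symbol, 10 genes of the 54838 counted in each library, and all 10 passed the filter on low counts that 16806 genes passed. Ribosome-bound RNA was collected by translating ribosome affinity purification (TRAP), in which ribosomes carrying the EGFP-tagged subunit L10a are pulled down with antibodies to EGFP. All libraries came from C57BL/6 mice of the genotype Drd2-Cre;Eef1a1LSL.eGFPL10a/+, about 10 weeks old, and the groups were 5 libraries from the dorsal and 5 from the ventral hippocampus. The split was unequal by hippocampal length: the dorsal part was the shorter one, the ventral part was the longer remainder, and the ventral subiculum was removed. Each library held the pooled tissue of 5 mice. Dorsal and ventral tissue was dissected from the same set of mice, and no source used here says whether libraries with the same number hold the same animals. Per the paper, Drd2-Cre drives the tag mainly in hilar mossy cells (MCs), the glutamatergic neurons between the blades of the granule cell layer. It also labels other Drd2-expressing cells, which the paper's results call a minor subset. Among its limitations, however, the paper states that a substantial part of the GABAergic interneurons with Drd2 can be captured. It adds that some subicular tissue may remain. The labels name no stimulation or other treatment, and the question the comparison answers is how the levels of these genes differed along the dorsoventral axis. Per the study's methods, tissue was dissected after decapitation and held in prechilled buffer with cycloheximide before it was homogenized. The levels are thus those after this handling, and its effect on these genes was not tested.

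In neurons, calcium entry and growth factor receptors signal through kinases to the factors CREB, SRF and MEF2, which are already present and bind the promoters of these genes. FOS, FOSB and JUNB proteins pair as AP-1, EGR1 to EGR4 are zinc finger factors, and NPAS4 is a basic helix-loop-helix factor that responds to calcium. ARC is no transcription factor and acts at synapses, in the removal of AMPA receptors. IER2 is a small nuclear protein.

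The libraries held between 11138676 and 20594364 counts on genes. Levels are given as CPM, counts scaled to a common library size, and 3 counts, the floor used here, correspond to 0.146 to 0.269 CPM. The floor speaks to counting error only, since the cDNA was amplified and carried no molecular identifiers. Read pairs that fell on no gene made up 27.0% ± 5.09 (SD, n = 5) of the dorsal and 14.4% ± 3.0 (SD, n = 5) of the ventral libraries, with no overlap (exact permutation test, two-sided, p = 0.00794, adjusted p = 0.0337 over 17 library measures). The MC label was checked on markers. Drd2 was present in every library, from 17.6 to 31.8 CPM, as was Calb2, which encodes calretinin and ranged from 49.7 to 73.9 CPM in the dorsal and from 529 to 726 CPM in ventral libraries. Markers of other cells were present too. The summed level of 6 oligodendrocyte markers ranged from 2345 to 2819 CPM in the dorsal and from 839 to 1651 CPM in ventral libraries, and that of 6 granule cell markers from 323 to 390 CPM and from 155 to 291 CPM. The 8 MC markers summed to between 577 and 658 CPM in the dorsal and between 1181 and 1417 CPM in ventral libraries, a difference carried mostly by Calb2, a known ventral MC marker (65.2 against 616 CPM on average). Of the 7 tested MC markers 4 were lower and 3 higher in dorsal libraries. Cyp26b1 was called in the dorsal direction (log2 fold change, dorsal over ventral, 1.05), and 2 were called in the ventral direction, Calb2 (-3.24) and Satb1 (-0.74, 270 against 450 CPM on average). None of these 3 sums overlapped between the regions (exact permutation test, p = 0.00794 each). By the rule for calls given below, which called 15.7% of all tested genes in the dorsal and 9.85% in the ventral direction, 4 of 6 oligodendrocyte, 2 of 6 granule cell and 3 of 5 astrocyte markers were called dorsal-enriched. In the ventral direction 3 of 8 interneuron markers, 1 of 5 pyramidal cell markers and 1 astrocyte marker were called, besides Calb2 and Satb1. The interneuron markers had the highest sum of these lists, 3766 ± 470 CPM (SD, n = 5) in dorsal and 4519 ± 549 CPM (SD, n = 5) in ventral libraries, with overlap (exact permutation test, p = 0.0635), most of it from Gad2, the GABA-synthesizing enzyme (2853 and 3174 CPM). No oligodendrocyte, granule cell or interneuron marker was at 0 in any library, and the part of these differences in the values of the 10 genes was not tested. In pooled tissue of this kind, fewer labelled cells that express a gene and less of its RNA per cell cannot be told apart.

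Promoters are shown first, since the signal-dependent factors act there: those of Fos and Egr4, called in opposite directions, and of Fosb, whose regions did not overlap. The RefSeq table for GRCm38.p6 held promoter windows for 6 of the 10 genes, Fos, Fosb, Junb, Egr2, Egr4 and Npas4, and the other 4 are Arc, Egr1, Egr3 and Ier2. The stretches below run 5′ to 3′ from base -190 to base -11 before the transcription start, 180 bases each. They are Fos at chr12:85473700-85473879 on the plus strand, Fosb at chr7:19310056-19310235 on the minus strand and Egr4 at chr6:85513600-85513779 on the minus strand. Capitals mark TGACG, the core of the cyclic AMP response element (CRE) that CREB recognizes, on either strand (CGTCA where it lies on the other strand).
Fos: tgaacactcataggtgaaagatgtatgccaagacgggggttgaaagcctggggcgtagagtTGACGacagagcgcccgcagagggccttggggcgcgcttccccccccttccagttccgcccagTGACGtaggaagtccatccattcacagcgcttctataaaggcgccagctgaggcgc
Fosb: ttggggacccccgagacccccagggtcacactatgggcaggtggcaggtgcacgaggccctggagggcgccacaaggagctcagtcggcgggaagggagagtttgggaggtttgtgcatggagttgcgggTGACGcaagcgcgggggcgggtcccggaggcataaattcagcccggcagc
Egr4: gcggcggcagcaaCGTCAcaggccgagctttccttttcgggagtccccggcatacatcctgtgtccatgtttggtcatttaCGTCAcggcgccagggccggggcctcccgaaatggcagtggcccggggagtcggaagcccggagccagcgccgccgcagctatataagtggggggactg

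In the 250 bases before the start, Fos held the TGACG core at -129 to -125 and at -66 to -62, and TATAAA at -33 to -28. Egr4, which differed between the regions in the other direction, held the core at -177 to -173 and at -109 to -105, both as CGTCA. Fosb held 1 core, at -60 to -56, followed by a match to GCGNGGGCG, the letters that EGR proteins bind, at -50 to -42. Junb held 1 core, at -106 to -102, and Npas4 held 2, at -179 to -175 and -169 to -165. Egr2 has 5 annotated windows, of which 3 held 2 cores and 4 held a CArG box, the element bound by SRF. The 3 windows with cores overlap one another and hold the same 2 cores and the same CArG box. Of all 32851 promoter windows of this length, 17.8% held the TGACG core on either strand, 1.55% the full palindrome TGACGTCA, 4.7% GCGNGGGCG, 12.4% TATAAA, 6.75% the AP-1 letters TGANTCA and 1.47% a CArG box. The full palindrome contains the core and was in none of the windows of these 6 genes. These are matches of letters, and binding was not measured.

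Levels of different genes were compared as CPM per kilobase of exonic length, averaged over the 10 libraries. Egr1 was highest at 66.1 CPM per kilobase, followed by Egr3 at 40.1, and their ranges over the libraries, 50.6 to 86.9 and 29.1 to 49.8 CPM per kilobase, did not overlap. Arc followed at 13.6 CPM per kilobase, with a range of 8.87 to 20.5 that lay below that of Egr3. Junb averaged 7.40, Fos 4.08 and Egr4 3.56 CPM per kilobase. Ier2 at 0.958, Npas4 at 0.822, Egr2 at 0.814 and Fosb at 0.720 CPM per kilobase were the lowest. From Arc downward, each gene's range overlapped that of the next. The order was not alike in both regions, because Fos lay below Egr4 per kilobase in dorsal libraries (1.91 against 4.75 CPM per kilobase) and above it in ventral libraries (6.25 against 2.37 CPM per kilobase).

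**Figure D1:**
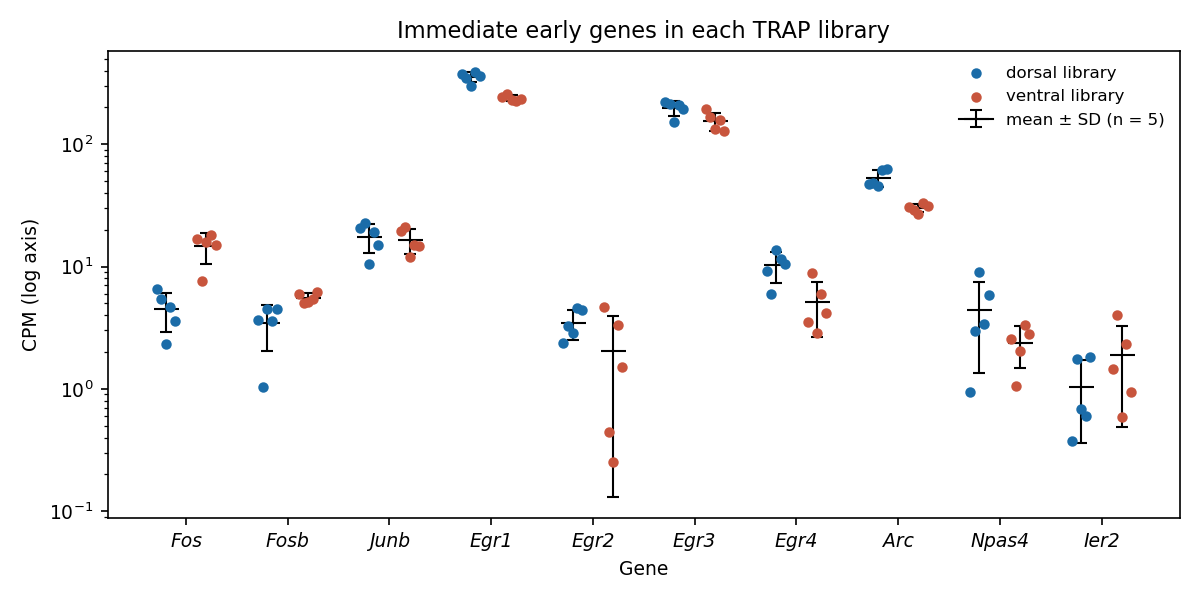
CPM of the 10 immediate early genes (log axis) in each dorsal (blue) and ventral (red) TRAP library; black bars are the mean ± SD of 5 libraries. Fos, Fosb, Egr1 and Arc do not overlap between the regions, Fos and Fosb being higher in ventral and Egr1 and Arc higher in dorsal libraries.

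The immediate early genes did not differ between the regions in 1 direction. Fos was 3.27-fold higher in ventral libraries, Arc 1.76-fold and Egr4 2.01-fold higher in dorsal libraries, and Egr1 1.49-fold higher in dorsal libraries. A gene was called enriched when the adjusted p of the edgeR test was below 0.05 and the log2 ratio of mean CPM plus 1 was beyond 0.58 in size. By this rule Egr4 and Arc, 2 of the 10 genes, were dorsal-enriched, and 1, Fos, was ventral-enriched. Over all 16806 genes the shares called were 15.7% in the dorsal and 9.85% in the ventral direction, so that the shares among these 10 genes were near the background. Libraries of the regions did not overlap in 4 of the 10 genes, against 18.2% of all genes. The median log2 fold change, dorsal over ventral, was 0.46 over the 10 genes and -0.0044 over all tested genes, and 7 of the 10 values were above 0.

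**Figure D2:**
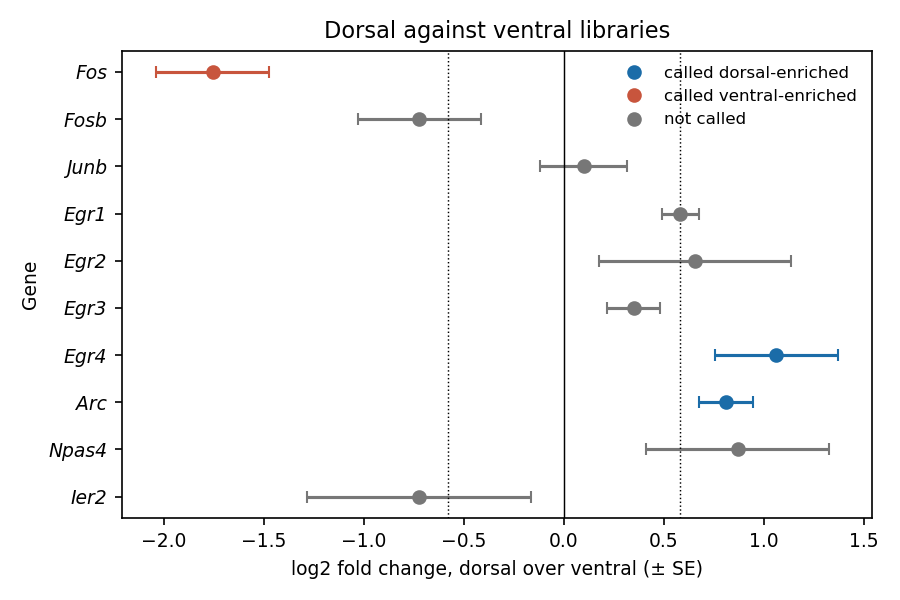
Log2 fold change, dorsal over ventral, of the 10 genes with its standard error (horizontal bars) from the edgeR quasi-likelihood fit on 5 dorsal and 5 ventral libraries; dotted lines mark 0.58 in either direction. Fos lies at -1.76, Arc at 0.81 and Egr4 at 1.06, and the estimates of the genes with few counts (Egr2, Npas4, Ier2) have the widest bars.

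Among the AP-1 genes, Fos (chr12:85473890-85477273, plus strand) encodes the subunit that is induced from a low level by activity. Its levels were 6.49, 5.39, 2.32, 4.68 and 3.61 CPM in dorsal libraries 1 to 5 and 16.8, 7.57, 15.9, 18.2 and 15.1 CPM in ventral libraries 1 to 5. Every ventral library lay above every dorsal one, and ventral library 2 was well below the other ventral libraries. The log2 fold change was -1.76 ± 0.28 (SE, adjusted p = 0.000612), from 34 to 320 counts per library. The call was lost when the share of read pairs on no gene, which separated the regions, entered the fit as a covariate (log2 fold change -1.32, adjusted p = 0.198).

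Fosb (chr7:19302696-19310051, minus strand), whose truncated protein form accumulates with repeated activity, had 3.67, 1.04, 4.50, 3.60 and 4.48 CPM in dorsal libraries and 5.94, 5.02, 5.15, 5.38 and 6.18 CPM in ventral libraries. The regions did not overlap, and dorsal library 2 stood below the other dorsal libraries. The log2 fold change of -0.72 ± 0.31 (SE) did not pass the test (adjusted p = 0.0826) and was -0.46 without dorsal library 2. Junb (chr8:84974484-84978718, minus strand), the partner of FOS proteins in AP-1, ranged from 10.6 to 22.5 CPM in the dorsal and from 12.1 to 21.1 CPM in ventral libraries. Its log2 fold change was 0.098 ± 0.22 (SE, adjusted p = 0.759), and 7.52% of its exonic length is shared with Prdx2, so that its counts are uncertain to that extent. Among the subunits of AP-1, the difference between regions was thus called for Fos alone, and whether it differed from that of Fosb or Junb was not tested.

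The EGR genes had positive log2 fold changes, dorsal over ventral, in all 4 cases. Egr1 (chr18:34859823-34864984, plus strand), a zinc finger factor with a high resting level in forebrain neurons, had 375, 345, 302, 390 and 364 CPM in the dorsal and 245, 257, 228, 227 and 232 CPM in ventral libraries. The lowest dorsal library was above the highest ventral one. The test was passed (log2 fold change 0.58 ± 0.093 (SE), adjusted p = 0.000569), but the log2 ratio of mean CPM plus 1, 0.578, fell just short of the threshold of 0.58 and Egr1 was not called. It was called under 14 of 24 other settings.

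Egr4 (chr6:85511121-85513589, minus strand) had 9.22, 5.91, 13.8, 11.6 and 10.5 CPM in the dorsal and 3.50, 8.89, 2.87, 5.95 and 4.20 CPM in ventral libraries. Dorsal library 2 lay below ventral libraries 2 and 4, and the other dorsal libraries lay above every ventral one. The log2 fold change of 1.06 ± 0.31 (SE, adjusted p = 0.0178) rested on 34 to 202 counts per library. The call was lost without ventral library 5 (adjusted p = 0.0512), with the no-gene share as covariate (0.96, adjusted p = 0.359) and with the replicate block and GC and length correction together (adjusted p = 0.0513).

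Egr3 (chr14:70077203-70082614, plus strand), which like EGR1 is tied to memory and synaptic plasticity, had 220, 213, 153, 210 and 194 CPM in the dorsal and 193, 166, 133, 157 and 128 CPM in ventral libraries. Its regions overlapped, and the log2 fold change of 0.35 ± 0.13 (SE) missed the threshold (adjusted p = 0.0567). Egr2 (chr10:67535475-67542188, plus strand), known for its role in myelinating Schwann cells as well as in neurons, ranged from 2.35 to 4.56 CPM in the dorsal and from 0.253 to 4.66 CPM in ventral libraries. Ventral libraries 2 and 3 held only 5 and 3 counts of Egr2, at or near the floor, and the log2 fold change of 0.66 ± 0.48 (SE) did not pass the test (adjusted p = 0.308). It ranged from 0.44 without ventral library 3 to 1.20 without ventral library 1.

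Arc (chr15:74669083-74672570, minus strand) had 47.1, 48.5, 45.9, 61.2 and 62.5 CPM in the dorsal and 30.6, 29.1, 27.1, 32.9 and 31.3 CPM in ventral libraries. The ventral libraries lay close together and all below the dorsal ones. The log2 fold change was 0.81 ± 0.13 (SE, adjusted p = 0.000692), and the call held under all 24 other settings, with a highest adjusted p of 0.0263.

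Npas4 (chr19:4984355-4990316, minus strand), which organizes inhibitory input to active neurons, had 0.941, 2.99, 9.0, 3.36 and 5.89 CPM in the dorsal and 2.55, 1.06, 2.03, 3.35 and 2.83 CPM in ventral libraries. Dorsal libraries spread widely, from below every ventral library to above all of them, and the log2 fold change of 0.87 ± 0.46 (SE) did not pass the test (adjusted p = 0.155). It was 0.45 without dorsal library 3 and turned to -0.84 with the no-gene share as covariate (adjusted p = 0.559). Ier2 (chr8:84661331-84662852, minus strand) was the gene with the fewest counts in a dorsal library, 4 in dorsal library 1. It ranged from 0.376 to 1.81 CPM in the dorsal and from 0.591 to 4.05 CPM in ventral libraries, with a log2 fold change of -0.72 ± 0.56 (SE, adjusted p = 0.334) that was -0.35 without ventral library 2.

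The opposite direction of Fos and Arc was set out as a ratio within each library, chosen after their values were seen and given without a test. The Arc to Fos ratio of CPM was 7.26, 8.99, 19.8, 13.1 and 17.3 in dorsal libraries 1 to 5 and 1.82, 3.84, 1.71, 1.81 and 2.07 in ventral libraries 1 to 5. The ratio does not depend on how a library is scaled. The Egr1 to Arc ratio ranged from 5.82 to 7.96 in dorsal and from 6.90 to 8.83 in ventral libraries and overlapped between the regions.

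**Figure D3:**
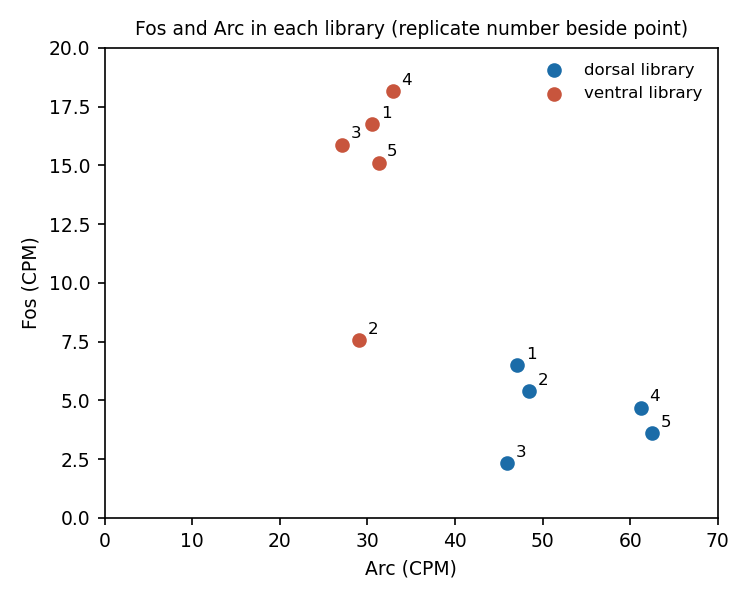
Fos CPM against Arc CPM in each library, dorsal in blue and ventral in red, with the replicate number beside each point. Dorsal libraries sit at 45.9 CPM of Arc or more and at 6.49 CPM of Fos or less, ventral libraries at 32.9 CPM of Arc or less and at 7.57 CPM of Fos or more.

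Other genes that activity induces were compared in the same fit, with 15.7% of all genes called in the dorsal and 9.85% in the ventral direction. With the no-gene share as covariate, the calls of Plk3, Amigo3, Inhba, Elk4, Mef2c, Rps6ka4, Nab1 and Dnajb1 named below were lost (adjusted p from 0.0981 to 0.355), and those of Crem and Homer1 were not. Of 15 other transcription factors of the response, 2 were called dorsal-enriched and 1 ventral-enriched, which was near those shares. Their log2 fold changes had a median of -0.064. The ventral one was Crem (-0.59 ± 0.21 (SE), adjusted p = 0.0408), whose short isoforms repress CRE-driven genes, and that call was lost under 12 of 24 other settings. The dorsal ones were Maff and Csrnp1, which overlapped between regions and are named after their values were seen; Maff passed the filter on low counts only through dorsal libraries, where it reached 2.16 CPM, so that its call is no support for a difference. Nr4a1, an orphan nuclear receptor induced along with Fos, averaged 16.2 CPM in dorsal against 16.9 CPM in ventral libraries (log2 fold change -0.064 ± 0.25 (SE), adjusted p = 0.866) and is likewise named after its values were seen. Nr4a2 (-0.55 ± 0.22 (SE), adjusted p = 0.0710) and Nr4a3 (-0.43 ± 0.15 (SE), adjusted p = 0.0352) of the same list lay lower in dorsal libraries. Both overlapped between the regions, were not called and are named after their values were seen. The summed level of the 15 factors was higher in ventral libraries, with a mean of 682 CPM against 548 CPM. The sums overlapped between the regions (exact permutation test, p = 0.0159, adjusted p = 0.0506 over 17 library measures).

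Of 19 other effectors, kinases and phosphatases of the response, 4 were called dorsal-enriched and 1 ventral-enriched, again near those shares. Their log2 fold changes had a median of -0.16. Plk3, a polo-like kinase induced at once by activity, was the ventral one, at 0.974 to 3.68 CPM in the dorsal and 4.31 to 7.47 CPM in ventral libraries (-1.38 ± 0.33 (SE), adjusted p = 0.00654). Its exons overlap Tctex1d4 over 3.32% of their length. Homer1, the postsynaptic scaffold whose short form Homer1a is induced by activity, was dorsal-enriched (0.62 ± 0.11 (SE), adjusted p = 0.000986), but turned to -0.44 when the fold changes were corrected for GC content and length, a correction that shifted the median of all genes to -0.18. Counts per gene do not separate Homer1a from the long forms. Amigo3 was dorsal-enriched at 0.260 to 1.43 CPM, with 0 to 0.253 CPM in ventral libraries. It passed the filter only through dorsal libraries and was not tested under 3 of the 24 other settings (the stricter filter, and without dorsal library 3 or 4), so that its call is no support for a difference. Dusp5 and Dusp6, phosphatases that switch off ERK, were dorsal-enriched with overlap between the regions and are named after their values were seen.

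Among 7 delayed genes of secreted proteins, 1 was called, Inhba, which encodes the activin A subunit. It had 22.2 to 32.4 CPM in the dorsal and 7.55 to 21.0 CPM in ventral libraries (1.20 ± 0.23 (SE), adjusted p = 0.00197). Bdnf, the neurotrophin of the same list, was at 47.7 CPM in the dorsal and 47.8 CPM in ventral libraries (adjusted p = 0.983) and is named after its values were seen. The median log2 fold change of the list was -0.0057.

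Of 20 factors and kinases that act upstream, 1 was called dorsal-enriched and 2 ventral-enriched. Their log2 fold changes had a median of 0.024. Elk4, a ternary complex partner of SRF, was the dorsal one, at 65.4 against 35.4 CPM on average (0.90 ± 0.13 (SE), adjusted p = 0.000356). Mef2c, a calcium-responsive factor, was ventral-enriched at 202 against 362 CPM (-0.85 ± 0.13 (SE), adjusted p = 0.000421), and at -0.51 with the no-gene share as covariate (adjusted p = 0.223). Rps6ka4, the kinase MSK2 that phosphorylates CREB and histone H3, was ventral-enriched (-0.68 ± 0.21 (SE), adjusted p = 0.0248), a call lost under 8 of 24 other settings, and 19.8% of its exonic length is shared with other annotated genes.

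Among 6 partners and corepressors, Nab1, which binds EGR proteins and represses their targets, was dorsal-enriched at 84.0 against 50.2 CPM (0.76 ± 0.14 (SE), adjusted p = 0.00168), and the other 5 were not called. With the GC and length correction Nab1 was at 0.54, below the threshold on the fold change. Of 5 tested heat shock genes, which respond to stress and tissue handling, 2 were ventral-enriched and none dorsal-enriched, against 9.85% and 15.7% of all genes. Dnajb1, a cochaperone of HSP70, averaged 138 CPM in dorsal against 223 CPM in ventral libraries (-0.69 ± 0.15 (SE), adjusted p = 0.00328). The other, Hspa1a, overlapped between the regions, at 0.0681 to 1.10 CPM in dorsal and 0.507 to 4.61 CPM in ventral libraries, and is named after its values were seen. Hspa1a passed the filter on low counts only through ventral libraries, so that its call is no support for a difference. Summed over the list, dorsal libraries held 483 ± 69.1 CPM (SD, n = 5) and ventral libraries 595 ± 38.3 CPM (SD, n = 5). The regions overlapped in it (exact permutation test, p = 0.0317, adjusted p = 0.06). Most of it came from Hsph1 and Dnajb1. Hsph1, named after its values were seen, was not called (dorsal mean 340 CPM, ventral mean 364 CPM, edgeR adjusted p = 0.459). Whether this sum bears on the difference of Fos between the regions was not tested. Within regions, the relation of Fos to this sum was r = 0.447 (exact permutation p = 0.212, adjusted p = 0.628 over 30 relations) and rho = 0.297 (exact p = 0.437), with r = 0.18 without the 2 libraries farthest from the median.

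**Figure D4:**
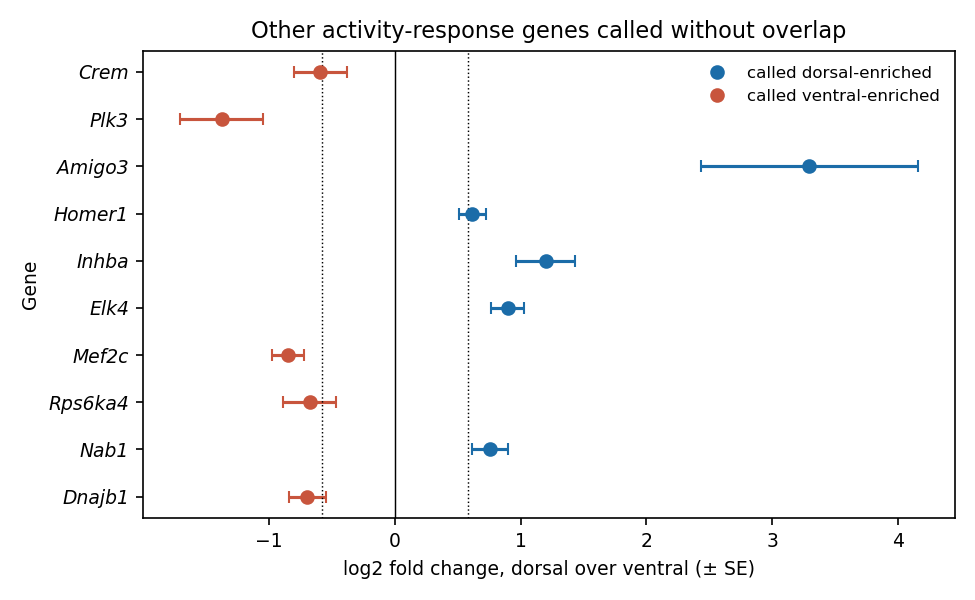
Log2 fold change, dorsal over ventral, with its standard error for the 10 genes of the activity-response and heat shock lists that were called and did not overlap between regions; dotted lines mark 0.58 in either direction. Crem, Plk3, Mef2c, Rps6ka4 and Dnajb1 lie on the ventral side and Amigo3, Homer1, Inhba, Elk4 and Nab1 on the dorsal side; Homer1 turned to -0.44 with the GC and length correction, and Amigo3 passed the filter on low counts only through dorsal libraries.

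Whether the 10 genes rose and fell together from library to library was examined on log2(CPM + 1) after subtracting each region's mean, so that the regional difference itself did not enter. Over the 45 pairs of genes the median Pearson r was 0.16, beside a median of 0.0 over all pairs of tested genes, whose quartiles were -0.337 and 0.341. The jackknife SE of the median over the 45 pairs, taken over the 10 libraries, was 0.117 and close to the value itself, which was 0.26 without ventral library 2 and 0.092 with the replicate block. Positive values were found in 31 of the 45 pairs. After adjustment over the 45 pairs, 0 pairs passed by Pearson's r and 0 by Spearman's rho (exact permutation of libraries within regions), and 6 had an unadjusted p under 0.05 by Pearson's r.

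Junb and Egr3 were the closest pair (r = 0.871, exact permutation p = 0.00319, adjusted p = 0.144, rho = 0.855, exact p = 0.00556), and r was 0.70 without dorsal library 3 and ventral library 3. Both genes were lowest in dorsal library 3 among the dorsal libraries. Egr1 and Junb had r = 0.767 (exact permutation p = 0.0222, adjusted p = 0.296, rho = 0.564, exact p = 0.130), which fell to 0.41 without dorsal library 3 and ventral library 3. Egr1 and Egr3 had r = 0.724 (exact permutation p = 0.0272, adjusted p = 0.296, rho = 0.588), and r was 0.56 without dorsal libraries 3 and 4. Egr2 and Arc had r = 0.588 (exact permutation p = 0.0101, adjusted p = 0.227, rho = 0.685). At the other end were Junb and Npas4 (r = -0.725, exact permutation p = 0.0395, adjusted p = 0.296) and Fos and Egr4 (r = -0.705, exact permutation p = 0.0344, adjusted p = 0.296). The value of Fos and Egr4 rested on ventral library 2 and dorsal library 3, since it was -0.15 without them. Fos and Arc had r = 0.10 (exact permutation p = 0.802, adjusted p = 0.887, rho = -0.10), and r turned to -0.66 without ventral library 2 and dorsal library 3. Over 30 relations of the genes with depth, the no-gene share and heat shock level, the lowest p was that of Egr1 with the no-gene share (r = -0.739, rho = -0.733, exact permutation p = 0.0161, adjusted p = 0.373). Junb (r = -0.697, rho = -0.503, exact permutation p = 0.0371, adjusted p = 0.373) and Egr3 (r = -0.672, rho = -0.624, exact permutation p = 0.0498, adjusted p = 0.373) were negative against that share too. Npas4 was positive (r = 0.480, exact permutation p = 0.186, adjusted p = 0.628). The part of this share in the correlations among these genes was not tested.

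**Figure D5:**
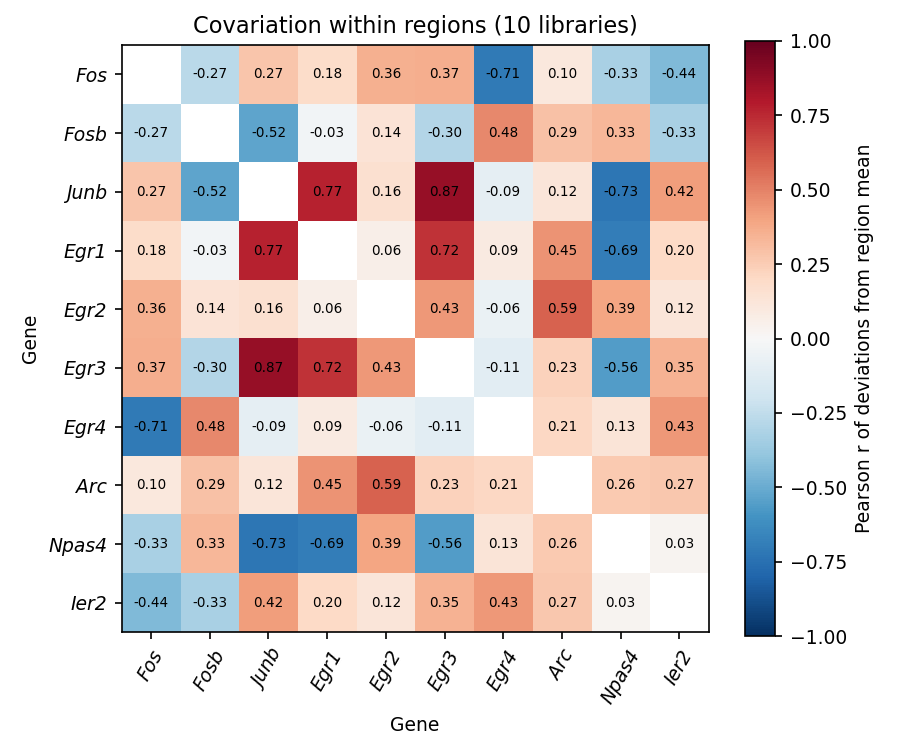
Pearson r between the 10 genes over 10 libraries, on deviations of log2(CPM + 1) from the region's mean (colour scale from -1 to 1). Junb, Egr1 and Egr3 form the darkest red block, at 0.72 to 0.87, and Npas4 is negative against all 3; 0 of the 45 pairs passed after adjustment.

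As a description without a test, the genes most like the mean of the 10 over the libraries were searched among 13539 protein-coding genes. The highest r were those of Amdhd2 (0.936), Chmp6 (0.930), Mpdu1 (0.927), Kcnk3 (0.908) and Coro2b (0.908). The lowest were those of Slx4ip (-0.931), Pnma2 (-0.925), Cyb5b (-0.925), Clic1 (-0.925) and Aktip (-0.919). All these values share the libraries and their depth, and as the ends of a search over many genes and 10 libraries they are extreme by selection. The mean was taken without scaling, so genes with a wide spread within regions weigh most in it. That spread (SD, log2) was 0.711 for Egr2, 0.697 for Npas4 and 0.574 for Ier2, against 0.167 for Arc and 0.114 for Egr1. Fos had r = -0.25 with the mean of the other genes.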

How the data were processed

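The deposited values were whole-number counts of read pairs per Ensembl gene, 1 table for each of 10 libraries, which the authors had neither normalized nor filtered. Per the study's methods and the submitters' processing notes, RNA was amplified with the Ovation RNA-Seq V2 kit, sequenced as paired ends, aligned to GRCm38 with STAR 2.5.2b and counted with HTSeq 0.7.2. The annotation release and the strand setting are not given in the sources used here, so that overlapping genes are uncertain. HTSeq's 5 summary lines and 2 lines of other text per table stayed out of library sizes. Symbols and exonic lengths came from GENCODE for GRCm38, which matched 54809 of 54838 identifiers, and promoter sequences from RefSeq.

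Counts were fitted in R 4.3.3 with edgeR 4.0.16. Genes above 1 CPM in at least 2 libraries were kept, TMM factors scaled the library sizes, and regions were compared by the quasi-likelihood test. P-values were adjusted by the Benjamini-Hochberg method over the 16806 genes. The standard error is the log2 fold change over the square root of F. CPM were computed with TMM-scaled library sizes. Pairs of genes were compared by exact permutation of libraries within regions (14400 arrangements), and library measures by exact permutation of group means. The scripts were tested on simulated data. Libraries of 1 region differed by 4.36 to 45.1 times the sampling noise, so that none was a duplicate.

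The 10 genes and the lists were chosen with earlier results of these data known. Genes named by rule from the activity-response and heat shock lists were those called without overlap between regions. The 5 highest and 5 lowest in likeness were also named by rule. Maff, Csrnp1, Nr4a1, Nr4a2, Nr4a3, Dusp5, Dusp6, Bdnf, Hspa1a and Hsph1 were named outside this rule, after their values were seen. Alternatives changed the normalization, filter, test, GC and length correction, replicate block and the libraries included. The edgeR 3 dispersions, the no-gene share as covariate and a fit on protein-coding genes alone were chosen after seeing the data.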

Additional observations from a re-analysis of the deposited data

Results flagged for a closer look

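In 2 of the 20 groups of 5 libraries (10 genes in each region), 1 library stood far from the rest by Dixon's criterion, and chance alone flags about 1 group in 20. Fos in ventral library 2 was at 7.57 CPM, with a gap to the nearest ventral library of 0.712 of the region's whole range. Fosb in dorsal library 2 was at 1.04 CPM, with a gap of 0.741 of the range.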

How the results depend on the processing

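Leaving out 1 library at a time gave 1 to 3 dorsal-enriched genes among the 10, the value of 1 coming without ventral library 5, where Egr4 was lost. With the no-gene share as covariate 0 of the 10 genes were called ventral-enriched, and Fos was the gene lost. In that fit Egr4 lost its dorsal call, Egr1 (0.87) and Egr3 (0.82, adjusted p = 0.0416) gained one, Npas4 turned to -0.84 and Junb moved to 0.86 (adjusted p = 0.204). Since that share separated the regions, the covariate and the region can be told apart only through the spread within regions. Homer1 turned to -0.44 under the GC and length correction and to -0.44 with the replicate block and that correction. With the replicate block, Fos was at -1.71 (adjusted p = 0.00292) and 2 of the 10 genes were dorsal-enriched and 1 ventral-enriched, as without it. The Egr4 call was lost with the block and the GC and length correction together (adjusted p = 0.0513). Deviations of libraries with the same number had r from -0.032 to 0.069 in the 5 pairs, with a mean of 0.016 against -0.0021 for other numbers. Such small values cannot tell whether these libraries share animals. Since no source used here states a pairing, the numbers entered only as the replicate block among the alternatives. The no-gene covariate lowered the calls over all genes to 967 dorsal and 394 ventral, and the GC and length correction gave 2096 and 3246. The causes were not tested. Counts of Egr2, Npas4 and Ier2 went down to 3, 10 and 4 per library.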
